A study of Mus musculus with 6 samples.

Results

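Chaperones and genes of the unfolded protein response were examined in injured mouse carotid arteries of wild-type mice (WT) and of global IRF4 knockout animals (IRF4 KO). The genes were taken from a list of 38 symbols that was proposed with results of these arrays known. It held 15 genes of the heat shock response of the cytosol and mitochondria and 23 of the stress response of the endoplasmic reticulum (ER). A gene was measured when a probe set of the array carried its symbol alone, and the brightest such probe set by mean over the 6 arrays stood for it. This left 36 of 18194 genes, 13 heat shock genes and all 23 ER stress genes. Hsp90ab1, a constitutive cytosolic Hsp90, and Hsf1, the factor that switches on heat shock genes, had no such probe set in the annotation used here.

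The arteries had been injured with a wire, which strips the endothelium, and were collected 14 days later. For each array 3 to 5 vessels were pooled and 400 ng of their RNA was turned into biotinylated cRNA, with 3 arrays per genotype that the labels call biological replicates. The labels name no other treatment, allele, age, sex or strain for either genotype. No uninjured artery was analysed here, so the response to the injury itself was not measured. In whole-vessel RNA, fewer cells of a type and less RNA per cell cannot be told apart.

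Chaperones hold unfolded proteins and help them fold. In the cytosol, heat shock factor 1 raises Hsp70, Hsp90, Hsp110, small heat shock proteins and their J-domain partners when unfolded proteins build up. In the ER, where secreted and membrane proteins such as collagens fold, sensors encoded by Ern1, Atf6 and Eif2ak3 act through the transcription factors Xbp1, Atf6 and Atf4 to raise ER chaperones, disulfide isomerases and the degradation machinery. Synthetic smooth muscle cells and fibroblasts of an injured artery secrete much matrix and depend on this system.

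The response elements of both programmes were read in RefSeq promoters (GRCm38.p6, 250 bases before to 50 after each annotated start). The lists hold known genes of these responses, so the shares of genes with an element are not an independent test of the lists. The ER stress response element is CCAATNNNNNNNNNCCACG, its second form is ATTGG and CCACG set 1 base apart, and the heat shock element is GAANNTTCNNGAA, each searched on both strands, with N any base. The second form has the same CCACG and the reverse complement of CCAAT, and matches of the heat shock element can overlap each other. The following stretches carry such matches in the strand of the gene, with the matched bases in capitals and up to 25 bases on each side.
Hspa5: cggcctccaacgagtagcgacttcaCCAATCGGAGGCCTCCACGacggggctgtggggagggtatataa
Hsp90b1: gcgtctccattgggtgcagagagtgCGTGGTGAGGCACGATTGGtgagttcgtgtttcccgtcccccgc
Pdia6: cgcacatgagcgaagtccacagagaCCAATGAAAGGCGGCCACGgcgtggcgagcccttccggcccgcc
Calr: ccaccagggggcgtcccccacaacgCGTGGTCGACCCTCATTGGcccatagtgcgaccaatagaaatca
Herpud1: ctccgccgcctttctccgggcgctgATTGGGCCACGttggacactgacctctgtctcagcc
Hspe1: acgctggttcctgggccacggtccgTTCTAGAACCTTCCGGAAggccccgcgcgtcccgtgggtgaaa

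The Hspa5 stretch lies at chr2:34772000-34772068 on the plus strand, with the element from 65 to 47 bases before the start. Hsp90b1 carries a match from 107 to 89 bases before its start (chr10:86705508-86705576, minus strand) and another whose first base is 212 bases before it. The Pdia6 stretch is chr12:17266466-17266534 (plus strand), that of Calr chr8:84847050-84847118 (minus strand) and that of Herpud1, which holds the second form, chr8:94386352-94386412 (plus strand). The Hspe1 stretch, chr1:55088034-55088101 on the plus strand, holds 2 overlapping heat shock elements, and the same bases read on the minus strand lie before Hspd1, so the divergent pair of mitochondrial chaperonin genes shares them.

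Promoters were found in the table for 31 of the 38 genes. The ER stress response element was present in 7 of 20 ER stress genes (35%), namely Calr, Canx, Creld2, Dnajc3, Hsp90b1, Hspa5 and Pdia6, and in 0 of 11 heat shock genes. Over all 27025 genes with a promoter it was present in 0.137%. Its second form occurred in Herpud1 and Dnajb11 (10% of the 20), against 0.0444% of all genes. The heat shock element was present in Hspd1, Hspe1 and Hsph1 (27.3% of 11), against 0.662% of all genes, and in 0 of 20 ER stress genes. In Hsph1 1 site, counted from 2 annotated starts, lay just after them. A match describes the letters of this window and is not a measurement of binding. Only exact words were searched in this window, so a gene without a match may still hold a variant or more distant element.

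**Figure D1:**
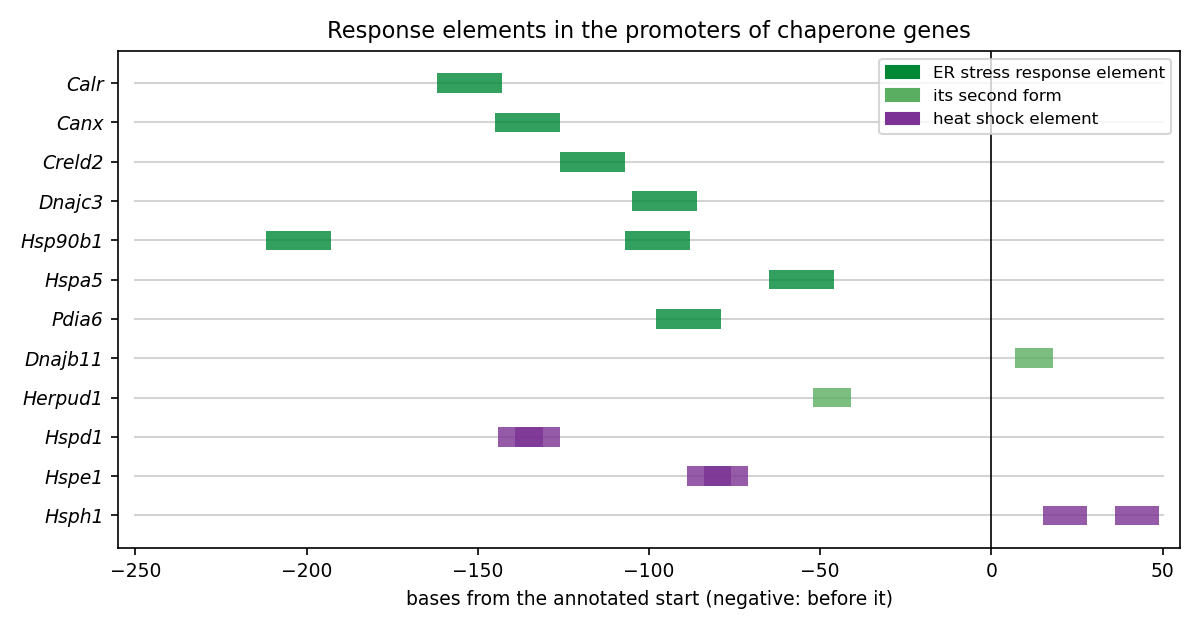
Position of the matched response elements (coloured bars) in the promoters of 12 chaperone genes, in bases from the annotated start. Dark green bars mark the ER stress response element in 7 genes, light green bars its second form in 2, and purple bars the heat shock element in 3.

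Facts of the arrays that bear on these genes were as follows. The values are log2 probe set intensities after RMA, and the median over all genes was 4.89. Checked against the labelled tissue, all 8 smooth muscle markers lay above that median, among them Acta2 and Myh11. Their mean level, each gene centred on its mean over the 6 arrays, was -0.19 in WT and 0.19 in IRF4 KO, and Acta2 (1.14), Tagln (1.08) and Smtn (1.09), which encode contractile proteins, were higher in every IRF4 KO array (limma adjusted p = 0.252 for each). The other 5 differed by -0.28 to 0.19. Irf4 itself read 3.64 ± 0.26 in WT and 3.57 ± 0.26 in IRF4 KO, below that median in both, so it did not check the genotype labels. A pair of arrays, WT 3 and IRF4 KO 1, differed from the remaining 4. Their poly-A spike-in controls, bacterial transcripts added before labelling, averaged 4.93 and 5.14, against 7.35 to 9.26 elsewhere. The mean level of 10 macrophage markers, each gene centred on its mean over the 6 arrays, was 1.70 and 2.79 in them against -1.48 to -0.57 elsewhere, that of 10 cartilage markers 2.65 and 2.67 against -1.51 to -1.06, and that of 7 adventitial fibroblast markers 1.09 and 1.63 against -0.75 to -0.61. The first of these arrays is WT and the other IRF4 KO, so the results that rest on them are also given in this pair and over the remaining 4 arrays.

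Between the genotypes, no chaperone or unfolded protein response gene passed the threshold. With limma, 0 of the 36 genes had a Benjamini-Hochberg adjusted p under 0.05, as did 0% of all 18194 genes, and the adjusted p was 0.999 for each of the 36. At an unadjusted p under 0.05 stood 1 of 36, Dnajb1, where 1.49% of all genes did. The genotypes did not overlap in 4 of the 36, against 5.68% of all genes: Dnajb1 and Hspd1 were lower in every IRF4 KO array (3.31% of all genes) and Manf and Xbp1 higher in every one (2.37% of all genes). The direction differed between the lists. Of the 13 heat shock genes 11 were lower in IRF4 KO, with a median log2 change of -0.30, whereas 16 of the 23 ER stress genes were higher, with a median of 0.17. Over all genes 50.3% were lower, 49.7% higher, and the median change was -0.0015. The lists were proposed with results of these arrays known, so these counts only describe them. Over the 4 arrays other than WT 3 and IRF4 KO 1, 9 of the 13 heat shock genes were higher. The median moderated standard error of a single gene was 0.25 in the heat shock list and 0.24 in the ER stress list.

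**Figure D2:**
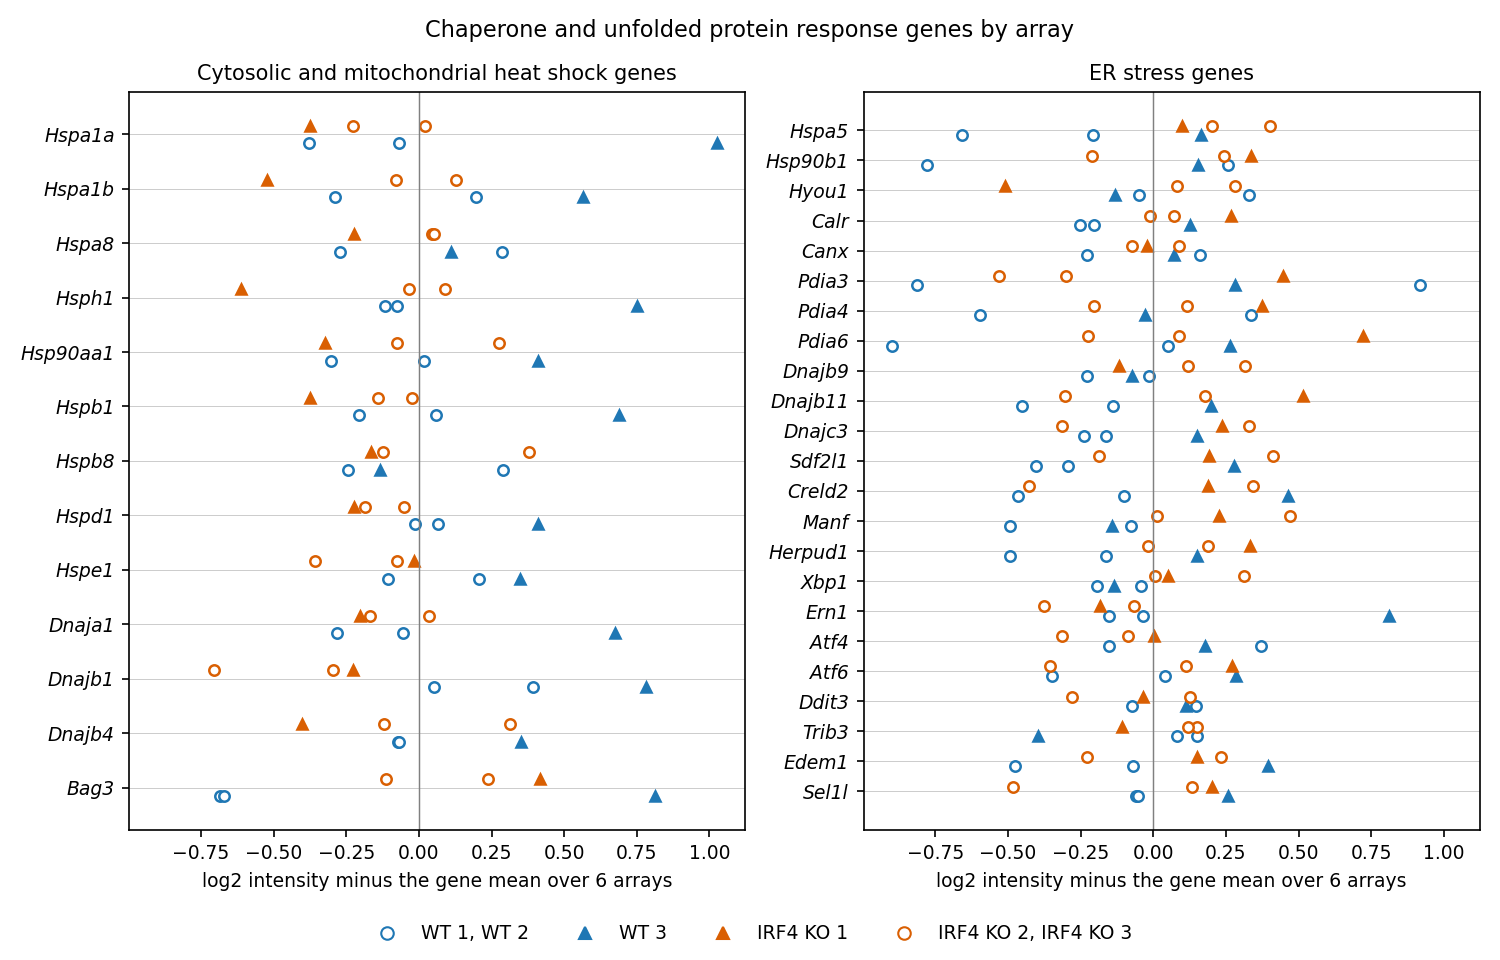
Log2 intensity of each measured gene minus its mean over the 6 arrays, for 13 heat shock genes (left) and 23 ER stress genes (right), with WT in blue and IRF4 KO in orange and 1 point per array. Filled triangles mark WT 3 and IRF4 KO 1; WT 3 is the highest array for 11 of the 13 heat shock genes, and WT 1 the lowest for 14 of the 23 ER stress genes.

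Dnajb1 encodes the J-domain partner that delivers unfolded proteins to stress-inducible Hsp70. It read 9.12, 8.78 and 9.51 in WT 1 to 3 and 8.50, 8.02 and 8.43 in IRF4 KO 1 to 3. Every IRF4 KO array lay below every WT array, and the change was -0.82 (SE 0.24, limma unadjusted p = 0.00989, adjusted p = 0.999), or 1.76-fold lower. Unlike most heat shock genes it differed by a like amount in the low spike-in pair (-1.01) and in the other 4 arrays (-0.72). Its other probe set read 6.56, 6.33 and 7.15 in WT and 6.91, 6.25 and 6.79 in IRF4 KO, which gave -0.030, so the probe sets of the gene disagreed. Dnaja1, another J-domain partner of Hsp70, read 9.23, 9.46 and 10.19 in WT and 9.31, 9.35 and 9.55 in IRF4 KO, with WT 3 alone standing out. Its difference was -0.23 over the 6 arrays, -0.88 in the pair and 0.10 over the other 4 arrays. Dnajb4 differed by -0.14 (-0.76 in the pair, 0.17 over the other 4), also with overlapping genotypes.

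The inducible Hsp70 genes Hspa1a and Hspa1b were high in 1 WT array. Hspa1a read 10.32, 10.01 and 11.42 in WT and 10.02, 10.16 and 10.41 in IRF4 KO. Hspa1b read 11.91, 11.42 and 12.28 in WT and 11.19, 11.63 and 11.84 in IRF4 KO. In both genes WT 3 was the highest array and the other 5 overlapped. The changes were -0.39 (SE 0.35) and -0.32 (SE 0.27), and without WT 3 and IRF4 KO 1 they were 0.12 and 0.069. Hspa1a and Hspa1b are near-identical copies, and their probe sets may share signal. Hsph1, the Hsp110 that recharges Hsp70, read 9.60, 9.55 and 10.42 in WT and 9.06, 9.76 and 9.64 in IRF4 KO. WT 3 was again the highest array, and IRF4 KO 1 the lowest. The difference was -1.37 in the pair and 0.12 over the other 4 arrays. On its second probe set, dimmer at 7.45 on average, Hsph1 was lowest in WT 1 (5.91) and highest in WT 3 (8.22). The change there was 0.33 (SE 0.53), so the probe sets of this gene disagreed. On the brightest probe sets the constitutive Hspa8 differed by -0.084 and the inducible Hsp90 gene Hsp90aa1 by -0.082, both within a standard error. Other bright probe sets of Hsp90aa1 differed by -0.55 (SE 0.32) and 0.11 (SE 0.43), and a second one of Hspa8 by 0.40 (SE 0.23), so these genes had no single reading.

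Among the small heat shock proteins and their co-chaperone the values were not alike. Hspb1, an actin-protecting chaperone abundant in smooth muscle, read 11.97, 12.23 and 12.86 in WT and 11.80, 12.04 and 12.15 in IRF4 KO. WT 3 was the highest array and IRF4 KO 1 the lowest. The difference was -1.06 in this pair and -0.0077 over the other 4 arrays. Bag3, which links Hspb8 and Hsp70 to autophagy of damaged filament proteins, read 7.33, 7.34 and 8.83 in WT and 8.43, 8.25 and 7.90 in IRF4 KO. WT 1 and WT 2 were the lowest arrays and WT 3 the highest, so the genotypes overlapped (change 0.36, SE 0.40). Over the 4 arrays with high spike-in controls Bag3 was higher by 0.74 in IRF4 KO, and its difference in the pair was -0.40. Its partner Hspb8 differed by 0.060.

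The mitochondrial chaperonin genes Hspd1 and Hspe1, which lie head to head and share the heat shock elements shown above, had like changes. Hspd1 read 8.95, 8.88 and 9.30 in WT and 8.67, 8.84 and 8.70 in IRF4 KO, with no overlap and a change of -0.31 (SE 0.19). Hspe1 read 8.90, 9.21 and 9.35 in WT and 8.98, 8.93 and 8.64 in IRF4 KO (change -0.30, SE 0.20), with 1 WT array inside the IRF4 KO range. Each was lower both in the pair (-0.63 and -0.37) and over the other 4 arrays (-0.14 and -0.27). On the second Hspe1 probe set all 3 IRF4 KO arrays lay below all WT arrays, with a change of -0.47.

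The heat shock list as a whole rested on WT 3 and IRF4 KO 1. Its mean level, each gene centred on its mean over the 6 arrays, was -0.084, -0.095 and 0.52 in WT 1 to 3 and -0.25, -0.069 and -0.024 in IRF4 KO 1 to 3. WT 3 was thus the highest array and IRF4 KO 1 the lowest, while the other 4 lay between -0.095 and -0.024. WT 3 was the highest array for 11 of the 13 genes, against 18.9% of all genes, and IRF4 KO 1 the lowest for 6, against 18.6% of all genes. Between IRF4 KO 1 and WT 3 all 13 genes were lower (49.4% of all genes were), with a median of -0.76. Over the other 4 arrays 9 of 13 were higher (50.1% of all genes) and the median was 0.10. Leaving out WT 3 alone brought the median from -0.30 to -0.049 with 8 of 13 genes lower, and leaving out IRF4 KO 1 alone to -0.16, also with 8 of 13 lower. The mean levels of the macrophage, cartilage and fibroblast markers were high in both of these arrays, though Matn1 and Fcgr1 among them were lowest in WT 3. The heat shock list was high in WT 3 and low in IRF4 KO 1. The immediate early list, 10 genes used as a sign of tissue handling, was at 0.16 in WT 3 and -0.0024 in IRF4 KO 1, within the range of the other 4 arrays (-0.45 to 0.47). The part of cell composition or of handling in the heat shock levels was not tested.

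**Figure D3:**
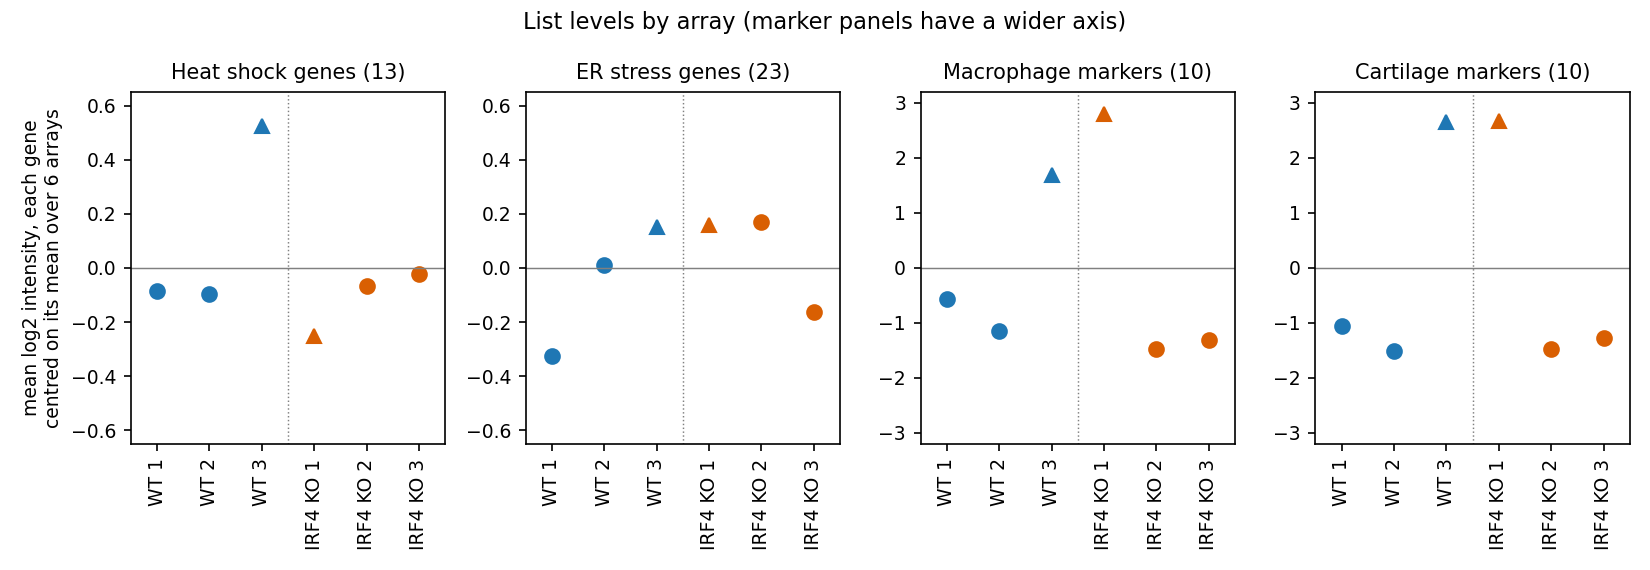
Mean log2 intensity of 13 heat shock genes, 23 ER stress genes, 10 macrophage markers and 10 cartilage markers in each array, each gene centred on its mean over the 6 arrays, with WT in blue, IRF4 KO in orange and triangles for WT 3 and IRF4 KO 1. Both triangles are high for the marker lists (1.70 to 2.79), while the heat shock list is at 0.52 in WT 3 and -0.25 in IRF4 KO 1.

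Among the ER chaperones, Hspa5 encodes BiP, the ER Hsp70 that binds nascent chains and holds the stress sensors inactive. It read 10.07, 10.52 and 10.90 in WT and 10.83, 11.14 and 10.94 in IRF4 KO. WT 1 and WT 2 were lowest, and WT 3 lay inside the IRF4 KO range. The change was 0.47 (SE 0.24, limma unadjusted p = 0.0893, adjusted p = 0.999), or 1.38-fold. It was 0.74 over the 4 arrays with high spike-in controls and -0.068 in the pair. The other Hspa5 probe sets differed by 0.66 and 0.084. Hsp90b1, the ER Hsp90, read 9.19, 10.23 and 10.13 in WT and 10.31, 10.22 and 9.76 in IRF4 KO on its brightest probe set, with WT 1 far below the rest. It differed by 0.25 (SE 0.31) on that probe set and by -0.75 on the other, so its direction was not settled. Hyou1, the ER Hsp110, differed by -0.099.

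Manf, a secreted ER stress protein that is raised by the response, read 8.31, 8.72 and 8.65 in WT and 9.02, 9.27 and 8.81 in IRF4 KO. All 3 IRF4 KO arrays lay above all WT arrays, with a change of 0.47 (SE 0.21, limma unadjusted p = 0.0538, adjusted p = 0.999), or 1.39-fold. It was higher in the pair (0.37) and over the other 4 arrays (0.53). Manf had 1 probe set under its symbol alone, so there was no second reading. The BiP partner Sdf2l1 and the disulfide isomerase-like Creld2 differed by 0.28 and 0.068. The ER J-domain genes, which pass clients to BiP, were the 1 chaperone family of the ER whose 3 members were all higher on the probe sets used, beside the lumenal group of Manf, Sdf2l1 and Creld2. Dnajb11 read 7.13, 7.45 and 7.78 in WT and 8.10, 7.76 and 7.28 in IRF4 KO, so that its lowest array was a WT one and its highest an IRF4 KO one. Dnajb9, Dnajb11 and Dnajc3 differed by 0.21 (SE 0.19), 0.26 (SE 0.27) and 0.17 (SE 0.23), with overlapping genotypes. A second Dnajc3 probe set, almost as bright (8.11 on average against 8.14), differed by -0.15, and the dimmer ones by 0.64, 0.11 and 0.44.

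The disulfide isomerases Pdia3 and Pdia6 varied widely within each genotype. Pdia3, the isomerase that works with the lectin chaperones, had the largest range of the ER stress list (1.73). It read 6.81, 8.54 and 7.90 in WT and 8.07, 7.09 and 7.32 in IRF4 KO, and WT arrays were both the lowest and the highest. Pdia6 read 7.56, 8.52 and 8.73 in WT and 9.19, 8.55 and 8.24 in IRF4 KO (change 0.39, SE 0.36), with WT 1 the lowest array by a wide margin. Pdia4 differed by 0.19. Of the lectin chaperones that hold glycoproteins until they fold, Calr read 10.68, 10.72 and 11.06 in WT and 11.20, 10.998 and 10.92 in IRF4 KO (change 0.22, SE 0.20), with WT 1 and WT 2 below the other 4 arrays. Canx had the smallest range of the ER stress list (0.39) and differed by -0.0032. Herpud1, which recruits the ER degradation machinery, read 7.60, 7.94 and 8.25 in WT and 8.43, 8.29 and 8.08 in IRF4 KO. Its highest arrays were IRF4 KO 1 and 2, WT 3 lay above IRF4 KO 3, and the change was 0.34 (SE 0.22). Of its partners in degradation Edem1 differed by 0.10 and Sel1l by -0.097.

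The sensors and transcription factors of the response did not share a direction. Xbp1, whose mRNA is spliced by the Ern1 product to make an activator of ER chaperone and degradation genes, read 9.92, 10.08 and 9.98 in WT and 10.17, 10.43 and 10.12 in IRF4 KO. The genotypes did not overlap and the change was 0.25 (SE 0.18), in the pair 0.19 and over the other 4 arrays 0.28. A second Xbp1 probe set read 8.31, 9.43 and 9.06 in WT and 9.64, 9.87 and 9.65 in IRF4 KO, higher by 0.78 with no overlap, and another differed by 0.39. The dimmest, at 5.69 on average, differed by -0.086. These probe sets do not tell spliced from unspliced Xbp1 mRNA as far as the annotation used here says.

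Ern1, the sensor that splices Xbp1, read 6.76, 6.64 and 7.61 in WT and 6.61, 6.73 and 6.42 in IRF4 KO. Only WT 3 stood out, and the change of -0.42 (SE 0.28) was -0.996 in the pair and -0.13 over the other 4 arrays. Atf4, the factor of the integrated stress response, read 8.45, 8.98 and 8.79 in WT and 8.61, 8.52 and 8.29 in IRF4 KO (change -0.27, SE 0.21). A second Atf4 probe set, which by its suffix may also match other transcripts, read 8.43, 7.98 and 8.16 in WT and 7.39, 7.79 and 7.27 in IRF4 KO, which gave -0.71 with no overlap. The Atf4 target Ddit3, which encodes the death-linked factor CHOP, read 7.003, 6.78 and 6.97 in WT and 6.82, 6.98 and 6.57 in IRF4 KO (change -0.13). Trib3, another Atf4 target, was the 1 gene of the 36 below the median of all genes, at 4.54, 4.47 and 3.99 in WT and 4.28, 4.54 and 4.51 in IRF4 KO. Atf6 read 5.62, 6.01 and 6.25 in WT and 6.24, 6.08 and 5.61 in IRF4 KO (change 0.016, SE 0.25). In IRF4 KO 3 of these 6 regulators were higher and 3 lower.

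The ER stress list varied along other arrays than the heat shock list. Its mean level was -0.32, 0.010 and 0.15 in WT 1 to 3 and 0.16, 0.17 and -0.16 in IRF4 KO 1 to 3, and the genotypes overlapped. WT 1 was the lowest array for 14 of the 23 genes, against 16.4% of all genes, and IRF4 KO 2 the highest for 7, against 7.67% of all genes. WT 1 was also the lowest array for the immediate early list (-0.45) and the endothelial list (-0.52), and IRF4 KO 2 the highest for the immediate early list (0.47). Between the genotypes the smooth muscle list differed by 0.37, the immediate early list by 0.31 and the endothelial list by 0.28, against 0.11 for the mean of the ER stress list. The part of these lists in the ER stress levels was not tested. Over the 4 arrays with high spike-in controls 18 of 23 genes were higher in IRF4 KO, with a median of 0.23, and in the pair 11 of 23, with a median of -0.016. Without WT 1 the median was 0.039 in place of 0.17, with 12 of 23 genes higher, without IRF4 KO 2 it was 0.061 and without IRF4 KO 1 it was 0.091. Without IRF4 KO 3 it was 0.28. Plasma cells, which hold very active ER stress machinery, had 3 of 7 measured markers above the median of all genes, and their list was at 0.40 in WT 3 and between -0.19 and 0.073 in the other arrays. The markers were not alike: Jchain read 5.45 in WT 3 and 2.31 to 3.45 elsewhere, while Ighm (5.61) and Derl3 (4.59) were lowest in WT 3. Sdc1 read 7.53 in WT 3 and 8.11 in IRF4 KO 1. Mzb1, Prdm1 and Tnfrsf17 read 4.79, 2.84 and 2.64 in WT 3.

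**Figure D4:**
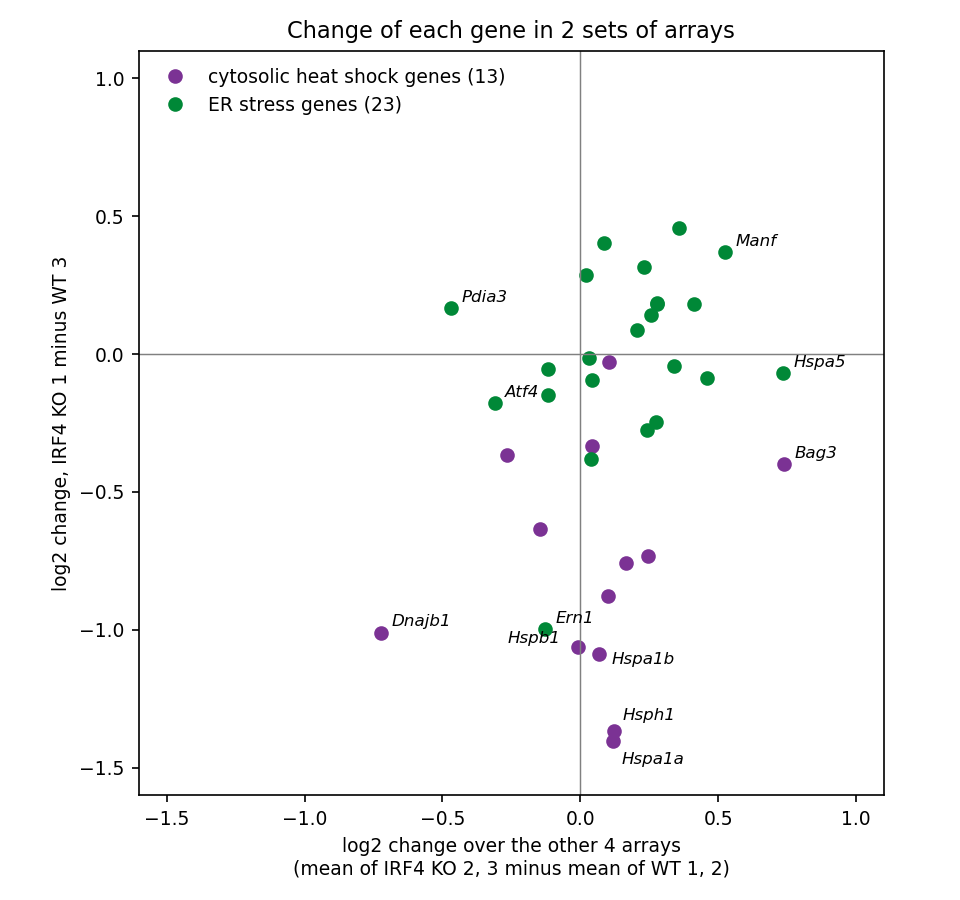
Log2 change of each gene over the 4 arrays with high spike-in controls (horizontal) and between IRF4 KO 1 and WT 3 (vertical), for 13 heat shock genes (purple) and 23 ER stress genes (green). All heat shock genes lie below 0 on the vertical axis and 9 of 13 lie above 0 on the horizontal one, whereas Dnajb1 is low on both and Manf high on both.

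Set against each other, the ER stress list minus the heat shock list was -0.24, 0.11 and -0.37 in WT 1 to 3 and 0.41, 0.24 and -0.14 in IRF4 KO 1 to 3. The mean over 3 arrays (± SD) was -0.17 ± 0.25 for WT and 0.17 ± 0.28 for IRF4 KO, a difference of 0.34. WT 2 lay above IRF4 KO 3, so the genotypes overlapped, and no p is given because the genes were proposed with results of these arrays known. The difference was 0.78 in the pair, 0.12 over the other 4 arrays, 0.24 without WT 3 and 0.22 without IRF4 KO 1.

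Grouped by promoter element, the 7 genes with the ER stress response element had a median change of 0.22, with 6 higher in IRF4 KO, and those with its second form differed by 0.26 and 0.34. The 11 ER stress genes with a promoter and no exact match had a median of 0.10, with 6 higher. The 3 genes with an exact match to the heat shock element were all lower, between -0.37 and -0.30. So were most heat shock genes, 11 of the 13 measured, and the largest change was that of Dnajb1 (-0.82), which had no exact match. Hsph1, 1 of the 3 with a match, differed by 0.12 over the 4 arrays other than WT 3 and IRF4 KO 1. None of these genes passed the test, and the groups share their arrays, so the counts describe the genes listed.

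Other probe sets of the same genes gave a second reading. The 36 genes had 90 probe sets in all, and in a fit over all 45101 probe sets 0 of the 90 passed an adjusted p under 0.05 with limma. At an unadjusted p under 0.05 stood 8 of 90, where 1.73% of all probe sets did. Of these 8, 3 were higher in IRF4 KO (Hspa5, Manf and Xbp1) and 5 lower (Dnajb1, Hspa8, Hspe1, Atf4 and Hsp90b1). The Hspa8 probe set concerned, at 5.15 on average, differed by -1.18, while the 3 brighter Hspa8 probe sets differed by -0.084, 0.40 and 0.040. Among probe sets above the median gene level and not used for a gene, 9 of 16 were lower in the heat shock list (median -0.070) and 15 of 20 were higher in the ER stress list (median 0.12). All probe sets above that level had 1 direction in 6 of 10 heat shock genes and 6 of 13 ER stress genes with several.

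Other genes of both systems were read from a wider list of 94 symbols, of which 92 were measured. None passed: with limma 0 of the 92 had an adjusted p under 0.05, as did 0% of all genes. The split was 42 higher to 50 lower, with a median of -0.026. Among other chaperones of the cytosol and mitochondria 16 of 39 were higher (median -0.046), and among other ER folding and stress genes 26 of 53 (median -0.011); over all genes 49.7% were higher. Stip1, the adaptor that passes clients from Hsp70 to Hsp90, was the 1 gene of the 92 with an unadjusted p under 0.05, where 1.49% of all genes had one. It read 6.05, 6.32 and 6.18 in WT and 6.62, 6.94 and 6.44 in IRF4 KO, higher in every IRF4 KO array (change 0.48, SE 0.20). The largest changes were those of Dnajb5 (-0.61), a J-domain gene, P4hb (0.55), the founding disulfide isomerase, Fkbp11 (0.50), an ER prolyl isomerase, and Stip1. P4hb was higher in every IRF4 KO array, at 9.93, 10.56 and 10.64 in WT and 11.35, 10.72 and 10.72 in IRF4 KO. Fkbp11 was highest in IRF4 KO 1 (6.44) and WT 3 (5.31), the arrays with high mean levels of the macrophage and cartilage markers. It lay between 3.54 and 4.10 in the other 4 arrays. Its direction turned without IRF4 KO 1 (-0.31).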

How the data were processed

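Expression was measured on 6 Affymetrix mouse arrays, 3 per genotype. The authors deposited log2 probe set intensities, which per the submitters' processing notes came from Affymetrix Expression Console and RMA (background correction, normalization between arrays and probe summary). No version or genome build was named there. RMA pulls dim probe sets together, so changes of dim genes are understated.

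Of 45101 probe sets, 34958 had 1 gene symbol in the platform annotation. Each of 18194 genes took its brightest probe set. limma 3.58.1 in R 4.3.3 (lmFit, eBayes, no covariate, two-sided) compared IRF4 KO with WT over all genes, with Benjamini-Hochberg adjustment and a threshold of 0.05. A change is the mean of IRF4 KO less that of WT, in log2 units. Run on data drawn with known answers for this design (18194 genes), the fit called 24% of genes shifted by 1 log2 unit and 75% at a shift of 2. The precision is limited by the number of arrays.

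All measured genes of the 2 lists are accounted for. Values by array are given for genes without overlap or with an unadjusted p under 0.05, for the regulators, for Hspa1a, Hspa1b and Hspa5, and for the 3 genes with the largest range in each list. Hspe1, Hsph1, Hspb1, Dnaja1, Hsp90b1, Dnajb11, Calr, Herpud1 and second probe sets were added after their values were seen. The members, lists and alternatives were chosen with earlier results of these data known. Replicate numbers did not pair the arrays (correlations of deviations from the genotype means of -0.52, 0.37 and -0.62 for equal numbers).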

Additional observations from a re-analysis of the deposited data

How the results depend on the processing

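The count of 0 genes past the threshold over all 18194 genes was kept with the mean of all probe sets, a replicate block, quantile normalization, array median subtraction, dim genes left out, an intensity trend, a spike-in block and each array left out in turn (0 to 0). It was 24 with array weights and 5 without WT 3 and IRF4 KO 1, and none of those was among the 36 genes, whose smallest adjusted p over the fits was 0.659. Replicate numbers did not pair the arrays; the replicate block left the medians at -0.30 and 0.17 and the count at 0. Leaving out 1 array gave medians of -0.35 to -0.049 for the heat shock list, 0.039 to 0.28 for the ER stress list and -0.12 to 0.083 for the other pathway genes, and 0.22 to 0.49 for ER stress minus heat shock. The heat shock median moved to 0.10 without WT 3 and IRF4 KO 1 and to -0.76 in that pair alone, and with array weights it was -0.13. In the pair the ER stress median was -0.016, that of the other pathway genes 0.066 and ER stress minus heat shock 0.78. Quantile normalization gave 0.038 for the other pathway genes.

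The sign of some single genes turned. Without WT 3 and IRF4 KO 1 these were Hspa1a (0.12), Hspa1b (0.069), Hspa8 (0.041), Hsph1 (0.12), Hsp90aa1 (0.24), Dnaja1 (0.10), Dnajb4 (0.17), Hyou1 (0.041) and Canx (0.042). With array weights they were Hspa8 (0.14), Hyou1 (0.20), Pdia4 (-0.022), Ddit3 (0.084), Sel1l (0.089) and Irf4 (0.074). With the mean of all probe sets they were Dnajb4 (0.0027), Hsp90b1 (-0.25), Canx (0.13), Ddit3 (0.094) and Sel1l (0.23), and with array median subtraction Atf6 (-0.019). Leaving out 1 array turned the sign of 16 of the 36 genes at least once. The ranges were -0.67 to 0.029 for Hspa1a, -0.24 to 0.038 for Hspa8, -0.25 to 0.10 for Hsp90aa1, -0.12 to 0.22 for Hspb8, -0.42 to 0.055 for Dnaja1, -0.33 to 0.025 for Dnajb4, -0.083 to 0.43 for Hsp90b1, -0.26 to 0.13 for Hyou1, -0.12 to 0.076 for Canx, -0.73 to 0.14 for Pdia3, -0.058 to 0.41 for Pdia4, -0.15 to 0.32 for Creld2, -0.16 to 0.20 for Atf6, -0.061 to 0.21 for Trib3, -0.11 to 0.32 for Edem1, -0.22 to 0.12 for Sel1l, -0.19 to 0.087 for Irf4 and -0.31 to 1.0 for Fkbp11. Over 15 alternative fits Dnajb1 ranged from -0.997 to -0.42, Hspa5 from 0.26 to 0.74, Manf from 0.35 to 0.59, Xbp1 from 0.15 to 0.34 and Bag3 from 0.11 to 0.86.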

Other observations

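Among the other pathway genes the genotypes did not overlap in 6 of 92, a share close to the 5.68% of all genes. Of these 6, 2 were higher (Stip1 and P4hb) and 4 lower. These genes were picked after their values were seen, and none passed the test. The 4 lower genes were Cct4 and Cct7, subunits of the cytosolic chaperonin that folds actin and tubulin, Trap1, the mitochondrial Hsp90, and Atf3, a stress-induced transcription factor that is also 1 of the immediate early genes used for handling. Cct4 read 9.83, 9.68 and 9.78 in WT and 9.42, 9.56 and 9.51 in IRF4 KO, lower in the pair (-0.36) and over the other 4 arrays (-0.22). Trap1 differed by -0.19 in the pair and by -0.18 over the other 4 arrays, and Cct7 by -0.063 and -0.31. Atf3 read 9.02, 8.97 and 8.89 in WT and 8.17, 8.67 and 8.73 in IRF4 KO, with IRF4 KO 1 the lowest, while the immediate early list as a whole averaged -0.15 in WT and 0.15 in IRF4 KO.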
